A study of Mus musculus with 3 samples.

Results

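The data describe 5-hydroxymethylcytosine (5hmC) at 55 mouse genes of neural tube closure and planar cell polarity, taken by name from a list of such genes. TET enzymes make 5hmC by oxidising 5-methylcytosine, and it was mapped here by hydroxymethylated DNA immunoprecipitation sequencing (hMeDIP-seq). The cells were the Sv129 mouse embryonic stem cell (mESC) line, split at random, by the study's methods, into folate-replete medium (FA4, 4 mg/L) or medium without added folate (FA0, 0 mg/L), both with fetal bovine serum and leukemia inhibitory factor. Each condition gave 1 immunoprecipitated library. None of the differences therefore has a replicate check, and a test on reads compares the libraries and not the conditions. The deposited tables list genome regions (mm10) where the libraries differed, each assigned to a gene. A region was kept when its gene symbol was on the list, and it was counted once per symbol. This gave 63 of 19817 listed regions, and each of the 63 carried a single symbol. Among the 55 genes 28 had a listed region and 27 had none. Over the genome 9293 gene symbols had a listed region, and how many could have been listed is not known. The sequence table used below holds 27025 genes, a rough scale for the 9293, but has windows for 41 of the 55 alone. No matched share over all genes was therefore set beside this count or those of the gene groups below. A gene with no listed region may lack 5hmC, hold equal 5hmC in both libraries or hold too few reads, and the tables do not separate these. The labelled cell type could not be checked against marker genes, since the tables hold DNA regions alone.

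The neural tube forms when the neural plate narrows, bends and fuses at its edges. Planar cell polarity, in which Fzd proteins face Vangl and Prickle proteins across cell borders, drives the narrowing. Shroom3 and actin regulators constrict the cell apex at the bending points. Transcription factors such as Grhl2, Grhl3, Pax3 and Zic2 set the identity of the closing ridges and their surface ectoderm, and retinoic acid, Wnt and Hedgehog signals pattern the tube. Folate supplies the methyl groups that DNA methylation uses, and 5hmC is made from methylated cytosine, which in mammals lies mostly in CpG dinucleotides.

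Promoters of some of these genes are shown first, as RefSeq sequence of the GRCm38.p6 assembly (the build called mm10), 5′ to 3′ on the strand of the gene. Each runs from 250 bases before to 50 bases after a transcription start site. Tgif1 and Dvl2 are shown because their windows lay nearest to a listed region among the 18 genes that had both a listed region and a window in the sequence table, at 141 bp and 142 bp. Celsr1 and Grhl2, which also had promoter regions, had no window. Cobl is shown because it had the most listed regions. Its window, the richer in CpG of those it had, lay 26911 bp from the nearest of them. Capitals mark each CpG in these. Cyp26a1 is shown because it is a known target of retinoic acid, and its capitals mark a pair of retinoic acid receptor half-sites.
Tgif1 (chr17:70851161-70851460, minus strand): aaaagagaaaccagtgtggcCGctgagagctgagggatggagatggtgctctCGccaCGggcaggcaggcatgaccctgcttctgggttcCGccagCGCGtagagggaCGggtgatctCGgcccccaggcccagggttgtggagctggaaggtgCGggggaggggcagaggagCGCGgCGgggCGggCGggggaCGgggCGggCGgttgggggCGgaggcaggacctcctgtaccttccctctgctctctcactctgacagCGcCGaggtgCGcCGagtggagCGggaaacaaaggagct
Dvl2 (chr11:70000342-70000641, plus strand): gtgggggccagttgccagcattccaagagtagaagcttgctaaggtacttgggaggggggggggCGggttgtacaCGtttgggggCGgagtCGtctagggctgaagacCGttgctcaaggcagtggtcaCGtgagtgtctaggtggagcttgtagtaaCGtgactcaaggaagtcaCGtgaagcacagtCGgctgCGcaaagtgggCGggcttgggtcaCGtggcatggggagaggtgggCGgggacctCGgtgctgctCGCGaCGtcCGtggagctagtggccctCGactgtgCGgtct
Cobl (chr11:12464911-12465210, minus strand): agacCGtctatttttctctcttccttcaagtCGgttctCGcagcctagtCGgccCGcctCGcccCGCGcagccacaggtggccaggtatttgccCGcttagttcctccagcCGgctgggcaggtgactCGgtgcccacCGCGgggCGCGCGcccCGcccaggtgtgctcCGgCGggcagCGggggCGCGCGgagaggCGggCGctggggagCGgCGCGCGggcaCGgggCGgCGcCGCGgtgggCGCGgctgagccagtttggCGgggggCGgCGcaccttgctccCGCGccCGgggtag
Cyp26a1 (chr19:37697558-37697857, plus strand): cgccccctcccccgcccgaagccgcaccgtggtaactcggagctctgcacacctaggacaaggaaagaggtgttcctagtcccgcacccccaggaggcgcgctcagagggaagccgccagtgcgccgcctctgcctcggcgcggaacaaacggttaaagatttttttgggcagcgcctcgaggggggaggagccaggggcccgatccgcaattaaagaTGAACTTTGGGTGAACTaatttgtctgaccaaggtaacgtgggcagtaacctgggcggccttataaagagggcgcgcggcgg
The Tgif1 window held 23 CpGs, the Dvl2 window 20, the Cobl window 42 and the Cyp26a1 window 26, where the median over 32851 windows of the same length was 7. A second Cobl window, at the start of a shorter transcript to which the tables assign its intron regions, held 0 CpGs. The Cyp26a1 motif was searched as AGTTCANNNNNAGTTCA on both strands, was found on the minus strand, and occurred in 8 of all windows (0.0244%). A match is a description of letters and not of binding. None of these windows lay inside a listed region. Of the 55 genes 41 had a window. Taking the CpG-richest window of each gene, the median CpG count was 22 for 7 genes with regions higher in FA0 alone, 27 for 6 genes with regions higher in FA4 alone, 37 for 5 genes with both and 21 for 23 genes with none. The ranges of these sets overlapped, and all these medians were above the 8 of all 27025 genes in the table.

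The 63 regions split into 30 with more 5hmC signal in FA0 and 33 with more in FA4, a share of 47.6% for FA0 (34.9% to 60.6%, Clopper-Pearson 95% interval). Over all listed regions 38.9% were higher in FA0. The members' share was above that value, and its interval includes it. Of the 28 genes, 11 had regions higher in FA0 alone, 9 had regions higher in FA4 alone and 8 had both. Cobl, an actin nucleator gene, had the most regions with 8, followed by Celsr1, Twist1 and Sfrp1 with 4 each. A region's signal pools all cells of a culture, so a change in the share of cells that carry the mark and a change in its density per cell cannot be told apart.

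**Figure D1:**
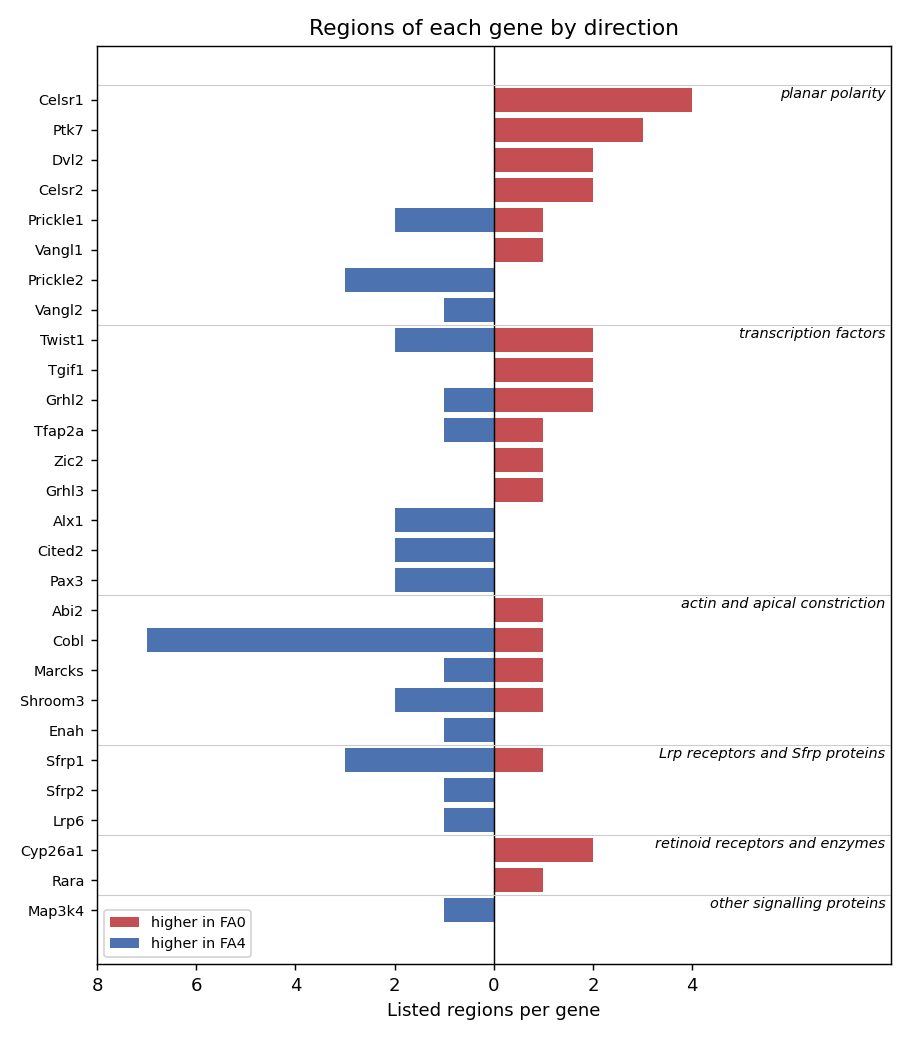
Number of listed regions per gene (horizontal axis), with regions higher in FA0 to the right and regions higher in FA4 to the left, for the 28 genes with a region, grouped by role. Celsr1 and Ptk7 had 4 and 3 regions, all higher in FA0, and Cobl had 7 regions higher in FA4 and 1 higher in FA0.

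The regions of both directions differed in how they reached the list. A G-test of the scaled counts gave every listed region a p under 1e-04, the largest being 9.83e-05. Against 0 reads in the other library the smallest count that was listed was 10 FA0 reads or 13 FA4 reads. The 30 FA0-higher regions held 10 to 35 FA0 reads (median 19) against 0 to 13 FA4 reads, and 6 of them (20%, beside 32.4% over all FA0-higher regions) held 0 FA4 reads. The 33 FA4-higher regions held 13 to 25 FA4 reads (median 17) against 0 or 1 FA0 read, and 23 of them (69.7%, beside 81.1% over all FA4-higher regions) held 0 FA0 reads. All 33 FA4-higher regions thus had at most 1 FA0 read, as had 91.9% of all FA4-higher listed regions. Of the 33, 10 stood at the minimum of 13 against 0 reads, a share of 30.3% beside 26.6% over all FA4-higher regions. The regions had a median length of 770 bp when higher in FA0 and 1140 bp when higher in FA4, beside 760 bp and 1080 bp over all listed regions.

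**Figure D2:**
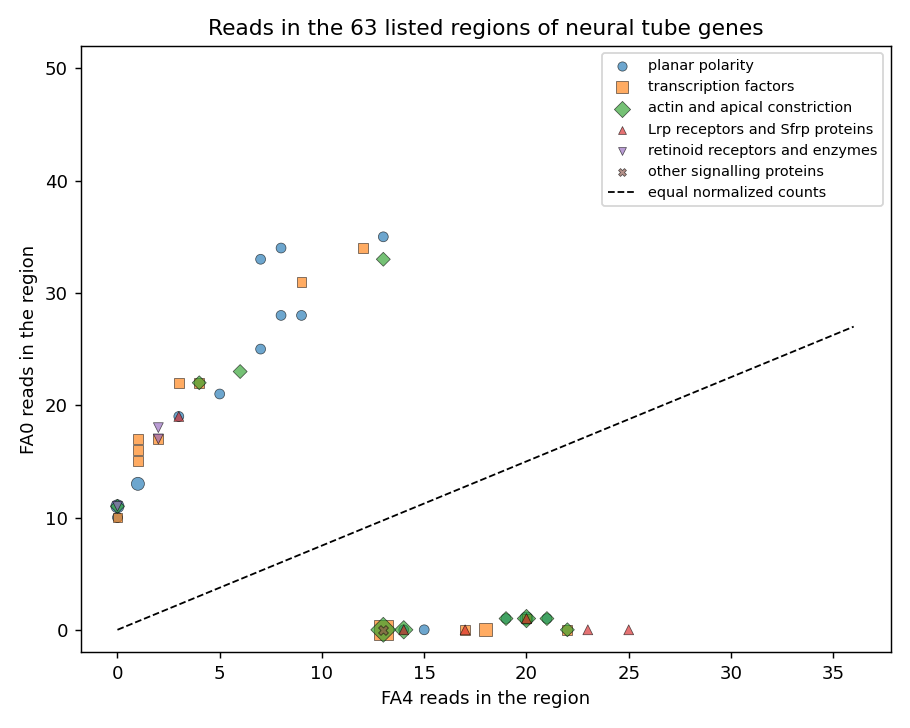
FA4 reads (horizontal axis) and FA0 reads (vertical axis) of each of the 63 regions, with a symbol per role group, larger where several regions of a group share the same reads. The dashed line marks equal normalized counts, the FA4-higher regions lie along the bottom with 0 or 1 FA0 read, and the FA0-higher regions hold 0 to 13 FA4 reads.

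Each region was tested with an exact two-sided binomial test on whole reads, with a null share of 57.1% FA4 reads taken from the authors' scaling. At 1e-04, 25 of the 30 FA0-higher regions passed, where 74.6% of all FA0-higher listed regions did. Of the 33 FA4-higher regions 8 passed, where 26.2% of all FA4-higher listed regions did. The shares were 83.3% and 24.2%, the former above and the latter just below its background. Against 0 reads 11 FA0 reads passed (p = 8.96e-05, exact). Against 0 reads 16 FA4 reads did not pass (p = 0.000158, exact), and 17 did (p = 8.7e-05, exact). Listing began at 10 FA0 or 13 FA4 reads against 0. FA4-higher regions with 13 to 16 reads against 0 thus could not pass, and the unequal shares were partly set beforehand. Regions were tested after they had been listed for a difference, so small values of p and ratios clear of 1 were likely beforehand, and ratios tend to be too large. Intervals cover counting error alone. Where the lower library held 0 reads, the fold sets the higher count against 3 reads, the floor for each region and library, is written as at least, and takes no account of that count's own counting error.

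The planar polarity genes leaned to FA0, with 13 regions against 6 higher in FA4. A share of 68.4% (43.4% to 87.4%) was higher in FA0, beside 38.9% over all listed regions. The lower bound lay above the background share, but 7 of the 13 regions belonged to Celsr1 and Ptk7. Regions of 1 gene are not independent. The lean also depended on the scaling of the libraries. With FA4 scaled up by 25% most of the 13 regions were lost, and all 6 higher in FA4 stayed. With FA0 scaled up by 25% all 13 stayed, and of the 6 a Prickle1 intron region alone was lost. With unscaled reads the Celsr1 intron regions with 34 and 33 FA0 reads alone stayed of the 13. Of the 6 the Vangl2 region alone was then lost. The background also differed by class, at 61.0% for promoter, 62.5% for exon, 43.4% for intron and 30.8% for intergenic regions. Intergenic regions made up 49.2% of all listed regions and 2 of this group's 19, and no background matched by class was computed. In addition, the group was formed with earlier results of these data known and was not tested against other genes. Further planar polarity and noncanonical Wnt genes that were not on the list, counted below, stood at 37.3% (25% to 50.9%). Of the 15 genes 8 had a region. Celsr1, Celsr2, Dvl2, Ptk7 and Vangl1 had regions higher in FA0 alone, Vangl2 and Prickle2 had regions higher in FA4 alone, and Prickle1 had both. Celsr3, Fzd3, Fzd6, Dvl1, Dvl3, Scrib and Sec24b had none. By class, 9 of the 12 intron regions of this group were higher in FA0, where 43.4% of all intron regions were. The exact test passed 10 of the 13 and 0 of the 6, beside 74.6% of all FA0-higher and 26.2% of all FA4-higher listed regions.

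Celsr1 encodes an atypical cadherin that binds its like on the neighbouring cell, and mice with mutant Celsr1 keep an open neural tube from hindbrain to tail. All 4 of its regions were higher in FA0 and all 4 passed the exact test. The region at the promoter (chr15:86032061-86032860, 1317 bp inside the transcript from the start site) held 7 reads in FA4 and 25 in FA0, a ratio of 4.76 (2.00 to 13; p = 9.25e-05, exact). The other 3 lay in introns. The one at 111757 bp from the start site (chr15:85921001-85923040) held 7 and 33 reads, a ratio of 6.29 (2.73 to 16.8; p = 4.03e-07, exact). The one at 126007 bp held 8 and 34 reads, and the one at 24047 bp held 9 and 28 reads. The 4 listed regions of Celsr1 thus shared a direction, with ratios from 4.15 to 6.29 whose intervals overlap. Within 1 Mb of these regions the tables listed 11 regions of other genes or intergenic sequence higher in FA0 and 1 higher in FA4, and the part of this neighbourhood in the result was not tested.

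Ptk7, a receptor-like protein with an inactive kinase domain, and Celsr2, the close relative of Celsr1, were also higher in FA0 throughout. The 3 Ptk7 regions lay in introns on chromosome 17 and held 1 and 13, 3 and 19, and 5 and 21 reads (FA4 first). The region with 3 and 19 reads (chr17:46580101-46580780) had a ratio of 8.44 (2.49 to 44.6; p = 3.73e-05, exact), and the one with 1 and 13 reads did not pass the exact test (p = 0.000139, exact). Around Ptk7, 22 to 23 other regions within 1 Mb favoured FA0 and 7 favoured FA4, so its direction was also the common one nearby. Celsr2 had an intron region (chr3:108407621-108408960) with 13 and 35 reads, a ratio of 3.59 (1.85 to 7.39; p = 2.96e-05, exact). Its exon region (chr3:108396321-108396620) held 0 and 10 reads, at least 4.44-fold higher in FA0, the smallest count that the tables list, and did not pass the exact test (p = 0.000209, exact).

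Dvl2 is a cytoplasmic transducer of Frizzled receptors. It had a promoter region (chr11:69999621-70000200, 715 bp before the start site) with 1 and 13 reads, a ratio of 17.3 (2.60 to 737; p = 0.000139, exact), which did not pass at 1e-04. Its exon region (chr11:70006121-70006460) held 0 and 11 reads, at least 4.89-fold higher in FA0 (p = 8.96e-05, exact). The promoter region ended 142 bp before the Dvl2 window printed above. Other regions within 1 Mb of Dvl2 were higher in FA0 in 18 cases and in FA4 in 7.

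The Vangl and Prickle genes, whose proteins act together on one side of the cell, went both ways. Vangl1 had an intron region (chr3:102164661-102165240) with 0 and 11 reads, at least 4.89-fold higher in FA0 (p = 8.96e-05, exact). Vangl2, the gene mutated in loop-tail mice, had a region 540 bp past the end of the gene (chr1:171999401-172000420), with 14 and 0 reads, at least 3.50-fold higher in FA4 (p = 0.000534, exact). Prickle2 had an exon region (chr6:92373161-92374460) with 21 and 1 reads, a ratio of 15.8 (2.53 to 651; p = 0.000112, exact). Its pair of intron regions held 20 and 1 reads each, and none of the 3 passed the exact test. Prickle1 had an intron region higher in FA0 (chr15:93538141-93539420, 8 and 28 reads, ratio 4.67, 2.07 to 11.8; p = 2.74e-05, exact). Another intron region of Prickle1 held 19 and 1 reads in favour of FA4, and an intergenic one held 15 and 0 reads. Neither FA4-higher region passed the exact test (p = 0.000355 for the intron region, exact), and the FA4-higher intron region was also lost with FA0 scaled up by 25%. The FA0-higher intron region was lost with FA4 scaled up by 25% and with unscaled reads, where both FA4-higher regions stayed.

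The 11 transcription factor and chromatin genes had 9 regions that favoured FA0 and 10 that favoured FA4, 47.4% (24.4% to 71.1%) beside the 38.9% of all listed regions. Of the 9 genes with a region, Grhl3, Zic2 and Tgif1 had regions higher in FA0 alone, Pax3, Cited2 and Alx1 had regions higher in FA4 alone, and Grhl2, Tfap2a and Twist1 had both. Zic5 and Cecr2 had none. The exact test passed 8 of the 9 and 4 of the 10, beside 74.6% of all FA0-higher and 26.2% of all FA4-higher listed regions.

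Grhl2, a grainyhead factor of the surface ectoderm without which the cranial neural tube fails to close, was split within the gene. Its promoter region (chr15:37232981-37233720, 315 bp past the start site) held 18 FA4 reads and 0 FA0 reads, at least 4.50-fold higher in FA4 (p = 4.81e-05, exact). Its pair of intron regions were higher in FA0, one (chr15:37344081-37344800) with 3 and 22 reads, a ratio of 9.78 (2.94 to 51.0; p = 4.64e-06, exact), and the other with 4 and 22 reads. All 3 passed the exact test. The listed promoter region and the listed intron regions lay in opposite directions, and the tables do not give the rest of the gene. Grhl3, its relative in the same tissue, had an upstream region with 12 and 34 reads higher in FA0 (ratio 3.78, 1.91 to 8.01; p = 3.29e-05, exact). It lay 19980 bp before the start site, at the outer edge of what the tables call upstream.

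Tgif1, a homeodomain repressor in TGF-beta and retinoic acid signalling, had both of its regions higher in FA0. The promoter region (chr17:70850421-70851020, 490 bp from the nearest start site the tables give for it) held 1 and 16 reads, a ratio of 21.3 (3.31 to 895; p = 1.31e-05, exact). It ended 141 bp from the Tgif1 window printed above. The other lay 65498 bp before the start site and held 1 and 15 reads (ratio 20, 3.08 to 842; p = 2.89e-05, exact). Around them, 3 other regions within 1 Mb were higher in FA0 and 11 to 12 in FA4, so Tgif1 did not share the common direction nearby. The same held for FA0-higher regions of other genes, such as Tfap2a, Abi2, Zic2 and Cyp26a1, and not for some, such as that of Grhl3. Tfap2a, a factor of neural crest and surface ectoderm, had an upstream region (chr13:40743201-40744060) with 1 and 17 reads, a ratio of 22.7 (3.55 to 947; p = 5.95e-06, exact), and an intergenic region with 13 and 0 reads in favour of FA4. The Zic2 region lay 14893 bp past the gene (chr14:122495221-122496480) with 9 and 31 reads, a ratio of 4.59 (2.13 to 11; p = 1.51e-05, exact).

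Pax3 acts in the dorsal neural tube, Alx1 in the head mesenchyme, and Cited2 is a partner of the coactivators CBP and p300. These genes had 2 regions each, all higher in FA4 and none inside the gene. The Pax3 regions lay 39027 bp and 98927 bp past the gene and held 22 and 0 reads (chr1:78060341-78062240, at least 5.50-fold; p = 8.04e-06, exact) and 13 and 0 reads. The Alx1 regions, 25147 bp and 27367 bp past the gene, held 18 and 0 and 13 and 0 reads. The Cited2 regions, both before the gene, held 17 and 0 reads at -13097 bp and 20 and 1 reads at -194287 bp. In each of these genes 1 of the 2 regions passed the exact test. Twist1, a factor of the head mesenchyme, had 4 regions around the gene, 2 of each direction. They held 13 and 0 reads at -14250 bp, 0 and 10 at 4880 bp, 2 and 17 at 84440 bp (p = 5.78e-05, exact) and 13 and 0 at 156210 bp, and the one at 84440 bp alone passed the exact test.

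The actin and apical constriction genes leaned to FA4, with 11 regions against 4 that favoured FA0, 26.7% (7.79% to 55.1%). The interval includes the 38.9% of all listed regions, and 7 of the 11 belonged to Cobl. Of the 9 genes 5 had a region, and Cfl1, Vasp, Marcksl1 and Abi1 had none. The exact test passed 1 of the 11 and 3 of the 4, beside 26.2% of all FA4-higher and 74.6% of all FA0-higher listed regions.

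Cobl had 7 regions higher in FA4 and 1 higher in FA0 along chromosome 11. Of the 8, 2 lay in introns and 6 in intergenic sequence up to 825390 bp before the start site, and the tables assign those far regions to Cobl. The FA4-higher regions held 13 and 0 reads in 4 cases, 14 and 0, 19 and 1, and 21 and 1 reads. Among the regions with reads in both libraries the highest ratio, of the intron region with 21 and 1 reads (chr11:12356641-12358060), was 15.8 (2.53 to 651; p = 0.000112, exact). None of the 7 passed the exact test. The FA0-higher region (chr11:12516061-12517320) held 6 and 23 reads, gave the lowest ratio with 5.11 (2.02 to 15.3; p = 9.18e-05, exact), and passed. Cobl thus rested mostly on counts at or near the minimum for listing.

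Shroom3, an actin-binding protein of the cell apex, had 2 intron regions higher in FA4 with 20 and 1 reads each and a region higher in FA0, upstream of the start site of a shorter transcript and inside the longer one (chr5:92890261-92891060) with 13 and 33 reads, a ratio of 3.38 (1.73 to 7.01; p = 0.000131, exact). None of the 3 passed the exact test. Marcks, a membrane protein that binds actin, had intergenic regions of both directions that passed. The one at -64954 bp (chr10:37203061-37204700) held 22 and 0 reads, at least 5.50-fold higher in FA4 (p = 8.04e-06, exact), and the one at -122074 bp held 0 and 11 reads. Abi2, a subunit of the WAVE complex, had an upstream region (chr1:60389921-60390860) with 4 and 22 reads, a ratio of 7.33 (2.49 to 29.3; p = 2.45e-05, exact). Enah, which extends actin filaments, had an upstream region with 14 and 0 reads, which did not pass.

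Among the LDL receptor-related proteins and secreted Wnt inhibitors 5 regions of 3 genes favoured FA4 and 1 favoured FA0. The share for FA0 was 16.7% (0.421% to 64.1%). The interval includes the 38.9% of all listed regions. Sfrp1, a secreted Frizzled-related protein that binds Wnt ligands, had 4 of these regions on chromosome 8. The one 40789 bp past the gene (chr8:23490421-23492540) held 25 and 0 reads, at least 6.25-fold higher in FA4 (p = 1.2e-06, exact), the smallest exact p among FA4-higher regions of the 55 genes. The others higher in FA4 held 17 and 0 reads and 20 and 1 reads. Its intron region (chr8:23424921-23425660) held 3 and 19 reads, a ratio of 8.44 in favour of FA0 (2.49 to 44.6; p = 3.73e-05, exact). This 1 listed region inside the gene differed in direction from the listed regions on its flanks, and it was lost with unscaled reads. Lrp6, the Wnt co-receptor, had an intron region (chr6:134512001-134513600) with 23 and 0 reads, at least 5.75-fold higher in FA4 (p = 4.23e-06, exact). Sfrp2 had an intergenic region with 14 and 0 reads, and Lrp2 and Sfrp5 had none.

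All 3 regions of the retinoid genes were higher in FA0 and all passed the exact test, as did 74.6% of all FA0-higher listed regions. Cyp26a1, the enzyme that clears retinoic acid from the early embryo, had 2 of them. The upstream region (chr19:37695021-37695480) lay 2557 bp before the start site and 2078 bp from the window printed above, and held 2 and 17 reads, a ratio of 11.3 (2.69 to 101; p = 5.78e-05, exact). The region 13045 bp past the gene (chr19:37714581-37715300) held 2 and 18 reads, a ratio of 12.0 (2.87 to 107; p = 2.97e-05, exact). Rara, a retinoic acid receptor gene, had an intron region (chr11:98949301-98949780) with 0 and 11 reads, at least 4.89-fold higher in FA0 (p = 8.96e-05, exact). Rarg and the synthesising enzyme gene Aldh1a2 had no listed region. With 3 regions the share of 100% has an interval from 29.2%, which includes the background of 38.9%.

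None of the 7 cilium and Hedgehog modulator genes (Intu, Fuz, Ift88, Tulp3, Rab23, Gpr161 and Fkbp8) had a listed region. Whether that is unusual was not tested. Of the remaining signalling genes Map3k4, a kinase of the stress pathway, had an intron region (chr17:12269301-12269580) with 13 and 0 reads, at least 3.25-fold higher in FA4 (p = 0.000994, exact), which did not pass. Nf1, Ptprs and Traf6 had none.

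By class of region, the genes were compared with all listed regions. At promoters 3 of 4 regions were higher in FA0 (Celsr1, Dvl2 and Tgif1, with Grhl2 the exception), where 61.0% of all promoter regions were. The exact test passed 2 of the 3, where 78.3% of FA0-higher promoter regions passed, and the Grhl2 region, where 24.2% of FA4-higher ones passed. In exons 2 of 3 were higher in FA0 (background 62.5%), in introns 13 of 22 (background 43.4%), upstream 5 of 9 (background 46.8%) and in intergenic sequence 7 of 25 (background 30.8%). The intron share was 59.1% (36.4% to 79.3%) and the intergenic share 28.0% (12.1% to 49.4%). All 5 intervals include the background of their class.

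**Figure D3:**
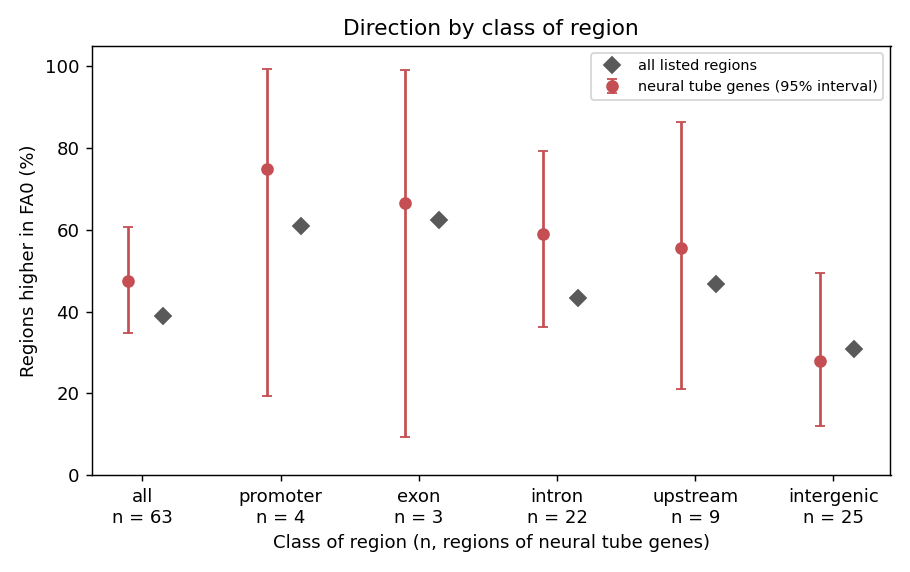
Share of regions higher in FA0 (vertical axis, percent) by class of region, for the 63 regions of neural tube genes (circles with 95% Clopper-Pearson intervals) and for all listed regions (diamonds). The genes stood at 75% of 4 promoter regions and 28.0% of 25 intergenic regions, and each diamond lies within the interval beside it.

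Distances run to the start site of the transcript that the tables assign, and some genes have a nearer start in RefSeq, such as Prickle1, with a promoter window 6551 bp from a listed region. Within 50 kb of a start site 20 of 32 regions were higher in FA0, 62.5% (43.7% to 78.9%), where 47.4% of all listed regions at that distance were, a value inside the interval. Beyond 100 kb 4 of 14 were higher in FA0, where 26.4% of all were, so all listed regions showed the same order, and the difference between near and far regions of these genes was not tested. The median distance from the start site was 19604 bp where FA0 was higher and 60110 bp where FA4 was, beside 28114 bp and 63225 bp over all listed regions.

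**Figure D4:**
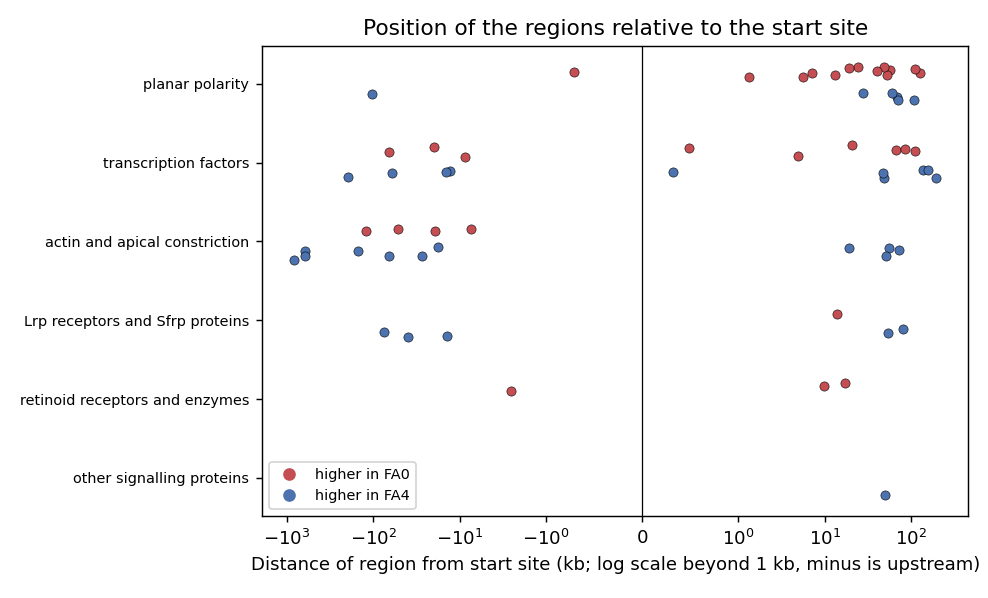
Distance of each of the 63 regions from the start site of its assigned transcript, the nearest of those the tables give for it (horizontal axis, kb, on a log scale beyond 1 kb, upstream to the left), by role group, with regions higher in FA0 and in FA4 in separate colours and a small vertical shift to separate points. Regions of planar polarity genes lie mostly downstream of the start site, and the 3 actin group points beyond 600 kb upstream are those of Cobl.

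Other genes of the same processes, which were not on the list of 55, were counted in the same way. Regions were listed for 17 of 31 further planar polarity and noncanonical Wnt genes, 22 regions with FA0 and 37 with FA4 higher, 37.3% (25% to 50.9%). They were listed for 34 of 56 further genes whose mouse mutants have an open neural tube, 36 regions with FA0 and 59 with FA4 higher, 37.9% (28.1% to 48.4%). Both intervals include the 38.9% of all listed regions and overlap that of the 55 genes, and the difference was not tested. In the planar polarity group of the 55 genes the share was 68.4% (43.4% to 87.4%). The further planar polarity genes did not show that lean, although the intervals overlap, and this difference was not tested either. In the former list the exact test passed 18 of the 22 and 10 of the 37. In the latter it passed 25 of the 36 and 13 of the 59. Over all listed regions 74.6% of the FA0-higher and 26.2% of the FA4-higher ones passed. Among regions that passed, FA0-higher ones thus outnumbered the others in both lists, as they did over all listed regions, where they made up 64.4%. This excess was partly set beforehand, since against 0 reads 11 FA0 reads passed and 16 FA4 reads did not.

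Which direction prevailed depended on the test and on the scaling of the libraries. By the exact test 25 regions passed for FA0 and 8 for FA4, 75.8% in FA0, where all listed regions gave 64.4%. With unscaled reads 2 and 19 regions passed, 9.52%, where all gave 9.67%. With FA4 over FA0 raised by 25% and the product of the factors kept, 11 and 33 regions passed, 25%, where all gave 21.0%. With FA0 over FA4 raised by 25% 30 and 9 passed, 76.9%, where all gave 59.0%. The 2 regions higher in FA0 that passed with unscaled reads were the Celsr1 intron regions with 34 and 33 FA0 reads.

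**Figure D5:**
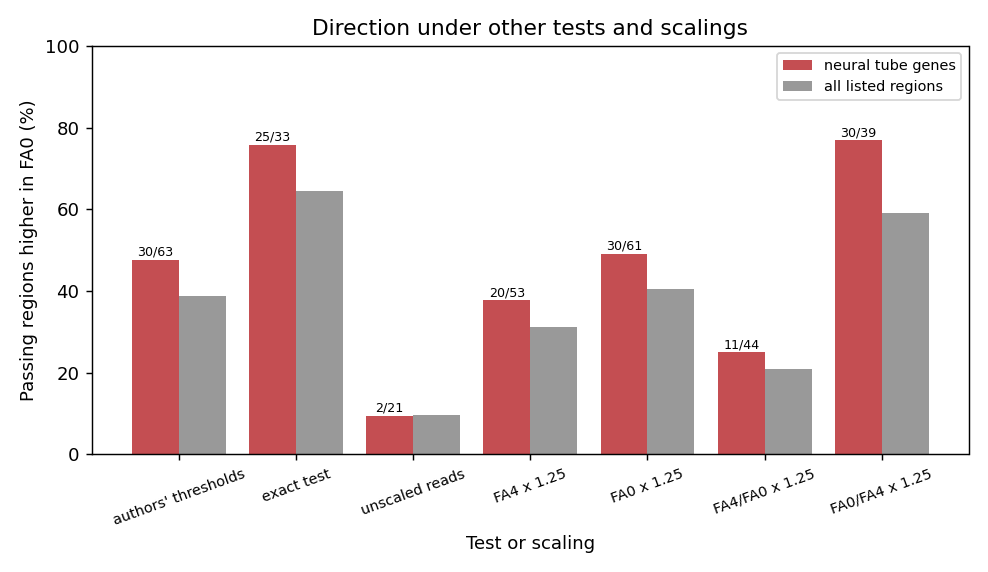
Share of passing regions that were higher in FA0 (vertical axis, percent) under 7 tests or scalings, for the neural tube genes (red bars, with FA0-higher regions over passing regions above them) and for all listed regions (grey bars). The share moved from 9.52% with unscaled reads to 76.9% with FA0 over FA4 raised, and the grey bars moved with it.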

How the data were processed

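Per the labels, genomic DNA of Sv129 mESCs was immunoprecipitated for 5hmC and sequenced; of 3 samples the FA0 input was left out. Trimming with cutadapt 1.9.1, Bowtie2 2.2.4 and the build mm10 are named in the submitters' processing notes, and the caller of the regions is not given in the sources used here. GEO's labels and the methods name different kits and fragment sizes. The authors deposited 4 tables with a signal per library, a read count multiplied by 1 factor per library (0.866 for FA4 and 1.15 for FA0). Dividing by the factor gave whole reads for all 53616 values, the largest deviation being 0.00576 reads (tolerance 0.02). A G-test of the scaled counts ordered the regions. The columns of the authors' comparison (fold changes, p-values and FDR) and 8 columns of averages were not used. The promoter tables repeat the promoter rows of the whole-genome tables. The depth of the libraries was not given in the files, so precision is that of the reads per region.

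Distances are those the tables give to the start site of an assigned transcript, taking the smallest where a region had several. Regions per gene, shares and ratios of normalized counts were computed with exact 95% intervals. Genes named in full were those with promoter or exon regions, the region with the smallest G-test p per role group and direction, and the extremes of the gene with the most regions. Others were named after their values were seen. The members and lists were chosen with earlier results of these data known. A simulation drew reads with counting error alone at the read totals of the 19817 listed regions, without the listing step. Of 50 regions per fold, the exact test called 0% changed 2-fold, 8% changed 4-fold, 22% changed 8-fold and 36% changed 16-fold. It called 1 of 19617 unchanged regions. These shares are not the power or error rate for regions already listed for a difference. The alternatives were the exact test, stricter thresholds, scalings, merged regions, other counting units, distances, members and chromosomes. The scaling that keeps the product of the factors was chosen after seeing the data. Tests ran in scipy 1.17.1 under Python 3.11.15, with tables in pandas 2.3.3 and numpy 2.4.6 and figures in matplotlib 3.10.9.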

Additional observations from a re-analysis of the deposited data

How the results depend on the processing

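No paired analysis was possible because each condition had 1 immunoprecipitated library, and no library could be left out. The tables list regions that passed, so an alternative can remove regions but not add any. The numbers of regions higher in FA0 and in FA4 were 30 and 33. They fell to 25 and 8 (75.8% in FA0) with the exact test, 5 and 8 at a G-test p under 1e-05, 17 and 1 (94.4%) with at least 20 normalized counts, 2 and 19 (9.52%) with unscaled reads, 11 and 33 (25%) with FA4 over FA0 raised by 25% and the product of the factors kept, and 30 and 9 (76.9%) with FA0 over FA4 raised likewise. With FA4 alone scaled up by 25% they were 20 and 33 (37.7%). Within 50 kb of a start site they were 20 and 12 (62.5%). Counted as genes they were 19 and 17, and with each transcript counted 37 and 50. Promoter regions higher in FA0 were 3. They were 1 at p under 1e-05, 1 with at least 20 normalized counts, 1 with FA4 scaled up by 25% alone, 1 with FA4 over FA0 raised, 0 with unscaled reads and 5 with each transcript counted. The 1 promoter region higher in FA4 became 0 with at least 20 normalized counts. A fold of 4, merging within 1000 bp, FA0 scaled up alone, leaving out Cobl and leaving out chromosomes 8 and 1 left 26 to 30 regions higher in FA0 and 26 to 33 higher in FA4. The deposited FDR was not run, since the columns of the authors' comparison were not used. The few reads per region, 10 to 35 in the higher library, limit every ratio.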
